A study of Mus musculus with 4 samples.

Results

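Small nucleolar RNAs, small Cajal body RNAs and microRNAs are short non-coding RNAs, and probe sets named for them formed 408 of the 23309 probe sets (1.75%) measured in mouse spleen. A probe set was included when any of its annotated symbols was a small nucleolar RNA (Snora or Snord and a digit), a small Cajal body RNA (Scarna) or a microRNA (Mir or Mirlet). By symbol, 28 probe sets belonged to H/ACA small nucleolar RNAs, 45 to C/D small nucleolar RNAs, 3 to small Cajal body RNAs and 334 to microRNAs, with 2 probe sets counted in 2 classes. Of the 408, 353 carried 1 symbol and 55 several. Among those 55, 43 also carried a symbol that is no small RNA, such as a ribosomal protein gene or a long non-coding transcript, so that their signal may come from the larger transcript. Together they named 430 distinct symbols. A few of these are microRNA host transcripts such as Mir17hg, which are not small RNAs themselves, and 4 of the 408 probe sets matched through host transcripts only.

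Spleens of 2 leukaemic mice were compared with those of 2 wild type mice, each on an Affymetrix array of its own that covers whole transcripts. All animals were 129Sv. The leukaemic mice were RBP-J flox/flox;Ren1dcre/cre, which places cre recombinase under the renin locus. Leukaemic replicate 1 was 107 days old with a spleen of 0.7 g, and leukaemic replicate 2 was 93 days old with a spleen of 0.47 g. The wild type mice were RBP-J flox/flox;Ren1d+/+, so the floxed RBP-J alleles were common to all animals and only cre at Ren1d set the genotypes apart. Wild type replicate 1 had reached 80 days and its spleen weighed 0.12 g, while wild type replicate 2 had reached 81 days and its spleen weighed 0.16 g. Leukaemic replicate 2 was male and the other mice were female. Genotype, disease, age and spleen weight therefore cannot be told apart.

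Small nucleolar RNAs (snoRNAs) guide the chemical modification of ribosomal RNA in the nucleolus: C/D snoRNAs direct ribose methylation and H/ACA snoRNAs direct the conversion of uridine to pseudouridine. Small Cajal body RNAs (scaRNAs) do the same for spliceosomal RNAs. Most mammalian snoRNAs are cut from introns of host genes, many of which encode ribosomal or nucleolar proteins, and then bind a set of core proteins. MicroRNAs are cut from hairpins in longer primary transcripts by Drosha and Dicer1, are loaded into Argonaute proteins and lower the output of messenger RNAs that pair with their seed, the bases near the 5′ end. In the blood system the microRNAs of the Mir17hg transcript support the survival of B cell precursors, the miR-181 family acts in lymphocyte development, and miR-142 and miR-150 are abundant in lymphocytes.

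The mature microRNAs of the loci that the results turn on are shown so that hairpins which share a target-recognition sequence can be told from those that only share a transcript. Capitals mark the seed, bases 2 to 8. Sequences and positions are from RefSeq on build GRCm38.p6. The 6 hairpins of the Mir17hg locus span 836 bases at chr14:115043671-115044506 on the + strand, and fall into 4 seed groups.
mmu-miR-17-5p: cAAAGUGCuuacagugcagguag
mmu-miR-20a-5p: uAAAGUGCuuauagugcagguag
mmu-miR-18a-5p: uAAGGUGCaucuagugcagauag
mmu-miR-19a-3p: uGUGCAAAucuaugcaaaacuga
mmu-miR-19b-3p: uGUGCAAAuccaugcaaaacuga
mmu-miR-92a-3p: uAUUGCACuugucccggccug
The related locus on chromosome X, chrX:52741693-52742567 on the - strand, has 6 hairpins. Mir18b, which makes miR-18b-5p with the seed of miR-18a, had no probe set among the members. The locus encodes miR-19b-3p and miR-92a-3p again from hairpins of its own, together with these microRNAs of the first and last seed groups.
mmu-miR-106a-5p: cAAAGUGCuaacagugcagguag
mmu-miR-20b-5p: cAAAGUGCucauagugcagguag
mmu-miR-363-3p: aAUUGCACgguauccaucugua
The miR-181 microRNAs share the seed ACAUUCA. Those of chr1:137966455-137966718 and chr2:38852735-38853918, both on the + strand, are the following, each made from both loci.
mmu-miR-181a-5p: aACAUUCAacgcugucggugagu
mmu-miR-181b-5p: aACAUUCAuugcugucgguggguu
The probe sets carry the names of hairpins. No source used here says whether their signal came from primary transcript, hairpin or mature RNA.

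Precursor B cell genes marked the leukaemic spleens, and markers of T cells, neutrophils, macrophages and erythroid cells read lower there, with fewer of them called. Of 8 precursor B markers, all measured, 5 rose (Igll1, Vpreb1, Vpreb2, Rag1 and Rag2), and the mean of the list was 10.00 and 10.35 in leukaemic spleens, against 7.88 and 7.82 in wild type spleens (log2). Of the other lineages, all 6 T cell markers, all 6 neutrophil markers, 4 of 5 macrophage markers and all 3 erythroid markers that were measured lay lower on both leukaemic arrays, as did 25.5% of all probe sets, and all 4 endothelial markers overlapped between groups. T cell markers fell in 3 of 6 cases, with list means of 8.46 and 9.19 in leukaemic and 10.63 and 10.22 in wild type spleens, and 1 of 6 neutrophil markers fell. The floxed gene Rbpj read 9.78 and 9.18 in leukaemic spleens and 9.99 and 9.74 in wild type spleens, a difference of -0.38 (SE 0.22, limma adjusted p = 0.43). No source used here says whether that probe set falls between the loxP sites, so it does not check the genotype. Wild type replicate 2 stood apart from the other arrays in exocrine pancreas genes: all 7 that were measured read over 1 log2 unit above every other array, with list means of 6.95 and 6.94 in leukaemic spleens and 6.87 and 11.89 in wild type replicates 1 and 2. In whole spleen, fewer cells of a type and less RNA per cell cannot be told apart.

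A single probe set of the 408 changed, and it is named for a host transcript, not for a small RNA itself. Mir17hg, the host transcript of the miR-17 cluster, rose in leukaemic spleen, and it was the 1 member (0.245%) that passed an adjusted p of 0.05 in limma, where 1.68% of all 23309 probe sets did. In the higher direction the background was 1.09%, and in the lower direction, in which 0 members were called, it was 0.592%. At an unadjusted limma p under 0.05 there were 31 members (7.6%; 19 higher and 12 lower), against 19.8% of all probe sets. Both leukaemic arrays lay above both wild type arrays in 77 members (18.9%) and below both in 58 (14.2%), where the array as a whole had 23.2% and 25.5%. The remaining 273 members overlapped between the groups.

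The class medians lay close to that of the whole array. The median difference (leukaemic minus wild type, log2) was -0.0025 for H/ACA snoRNAs, -0.024 for C/D snoRNAs, -0.11 for the 3 scaRNAs and -0.012 for microRNAs, beside -0.028 over all probe sets. Differences beyond 0.5 in size were found for 29 members (7.11%), 19 higher and 10 lower in leukaemic spleen, against 14.3% of all probe sets, and 5 members exceeded 1. The leukaemic arrays were both higher for 12 of 28 H/ACA probe sets and both lower for 6. Among C/D probe sets the counts were 10 and 9 of 45 (22.2% and 20.0%). Among microRNAs they were 56 and 42 of 334 (16.8% and 12.6%), beside 23.2% and 25.5% of all probe sets. For H/ACA snoRNAs the 12 make 42.9%, and among the 9025 probe sets whose mean level lay in the same middle range as that of the snoRNAs and scaRNAs, 35.6% were higher on both leukaemic arrays and 27.2% lower.

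**Figure D1:**
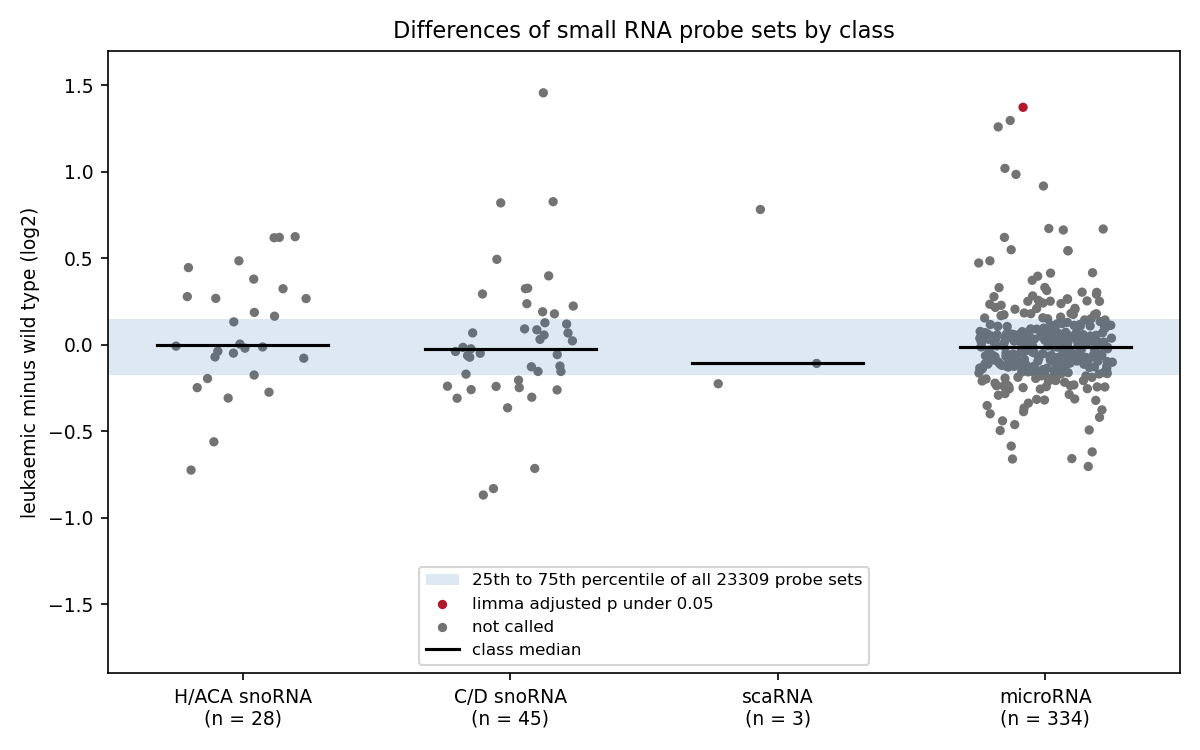
Difference of group means (leukaemic minus wild type, log2) of every snoRNA, scaRNA and microRNA probe set, 1 point each, by class, with the class median as a bar and the range between the 25th and 75th percentile of all 23309 probe sets shaded. Class medians lie between -0.11 and -0.0025, and the single called probe set is Mir17hg at 1.37.

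The brightness of a probe set depends on its probes, so levels are set only against a guide to background, the 1020 probe sets of olfactory receptors, which are not expressed in spleen. Their median was 5.05 and their 95th percentile 6.77 (mean of 4 arrays, log2). Above that percentile lay 27 of 28 H/ACA, 39 of 45 C/D and 3 of 3 scaRNA probe sets, but only 122 of 334 microRNA probe sets (36.5%), against 70.3% of all probe sets. For most microRNA probe sets, then, the signal was not above this guide, and a difference in the RNA was not readily detectable. For replicate spread, the median SD within groups was 0.16 for H/ACA snoRNAs, 0.22 for C/D snoRNAs, 0.16 for microRNAs and 0.14 for all probe sets.

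Wild type replicate 2 stood at opposite ends in different classes. It was the highest of the 4 arrays in 163 of 334 microRNA probe sets (48.8%), in 5 of 45 C/D probe sets (11.1%), in 67.5% of olfactory receptor sets and in 37.9% of all sets. It was the lowest in 21 of 45 C/D probe sets (46.7%) and in 24.9% of all sets. The median of wild type replicate 2 minus wild type replicate 1 was 0.18 for microRNAs, 0.22 for olfactory receptors and -0.20 for C/D snoRNAs. The part of this array in the differences below was not tested beyond leaving it out, as was done with each array.

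At the Mir17hg locus the host transcript and most of its hairpins read higher in leukaemic spleen. Mir17hg (probe set 10416945, chromosome 14) read 8.86 and 8.53 in leukaemic spleens, against 7.40 and 7.25 in wild type spleens. The groups did not overlap, and the difference of 1.37 (SE 0.17) amounts to 2.59-fold with a limma adjusted p of 0.025. The call was lost without wild type replicate 1 (limma adjusted p = 0.15, difference 1.45) and without wild type replicate 2 (adjusted p = 0.18, difference 1.30). It was also lost after quantile normalization (adjusted p = 0.056) and against a minimum difference of 0.5 (adjusted p = 0.16), while its difference stayed between 1.21 and 1.54 in every setting.

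The 6 hairpins of the locus read higher too, without passing the test, and 4 of them lay below the olfactory receptor guide, all but Mir18 and Mir92-1. All 6 had a positive difference, with a median of 0.61, and 5 of 6 were higher on both leukaemic arrays. The mean of the 6 was 7.01 and 6.50 in leukaemic spleens and 6.14 and 5.94 in wild type spleens. Mir18, which makes miR-18a, read 8.75 and 8.05 in leukaemic spleens and 7.66 and 7.11 in wild type spleens, a difference of 1.02 (SE 0.28, limma adjusted p = 0.12). Mir19a read 7.46 and 6.92 in leukaemic spleens and 6.61 and 5.18 in wild type spleens. Its difference of 1.30 (SE 0.44, limma adjusted p = 0.18) was 0.58 without wild type replicate 2, the lowest array, and 2.01 without wild type replicate 1. MiR-19 is the member of the cluster most often linked to its oncogenic action in mouse B cell lymphoma.

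For Mir19b-1, whose product has the same seed as miR-19a, the values were 6.20 and 5.43 in leukaemic spleens and 5.19 and 5.35 in wild type spleens (difference 0.54, SE 0.26). Mir20a read 5.15 on both leukaemic arrays and 4.60 and 4.75 on the wild type arrays (difference 0.47, SE 0.14). The set for Mir92-1, which also carries the Mir17hg symbol, read 7.93 and 7.31 in leukaemic spleens and 6.90 and 7.00 in wild type spleens (difference 0.67, SE 0.22). Mir17, the first hairpin of the cluster, was the one that overlapped: 6.57 and 6.11 in leukaemic spleens, 5.91 and 6.25 in wild type spleens. Leukaemic replicate 1 gave the higher leukaemic value in every one of these hairpins except Mir20a, where both arrays were equal to 2 decimals. The limma adjusted p of Mir20a, Mir92-1 and Mir19b-1 was 0.13, 0.16 and 0.31. Without leukaemic replicate 1 the differences of Mir18, Mir92-1, Mir19b-1 and Mir17 were 0.67, 0.36, 0.15 and 0.03. Without leukaemic replicate 2 they were 1.37, 0.98, 0.93 and 0.49, and that of Mir19a was 1.57.

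Hairpins of the 2 related loci did not follow as a group. On chromosome X, Mir363 read 6.02 and 5.33 in leukaemic spleens and 4.63 and 4.88 in wild type spleens, a difference of 0.92 (SE 0.24, limma adjusted p = 0.11) without overlap. That of Mir363 was 0.57 without leukaemic replicate 1 and 1.26 without leukaemic replicate 2. Its neighbour Mir20b, which shares the miR-17 seed, read 5.88 and 6.08 in leukaemic spleens and 6.30 and 6.39 in wild type spleens, a difference of -0.37 (SE 0.15, limma adjusted p = 0.23). Mir106a, Mir19b-2 and Mir92-2 differed by 0.05, -0.01 and 0.11 and overlapped between groups. All 5 lay below the olfactory receptor guide, as did 4 of the 6 hairpins of the Mir17hg locus. At chr5:138165321-138165818 on the - strand, inside the gene of the replicative helicase subunit Mcm7, 3 hairpins above that guide overlapped between groups. There Mir25, whose miR-25-3p has the miR-92a seed, read 9.42 and 8.84 in leukaemic spleens and 8.84 and 9.06 in wild type spleens. Mir93 and Mir106b differed by 0.23 and -0.06.

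**Figure D2:**
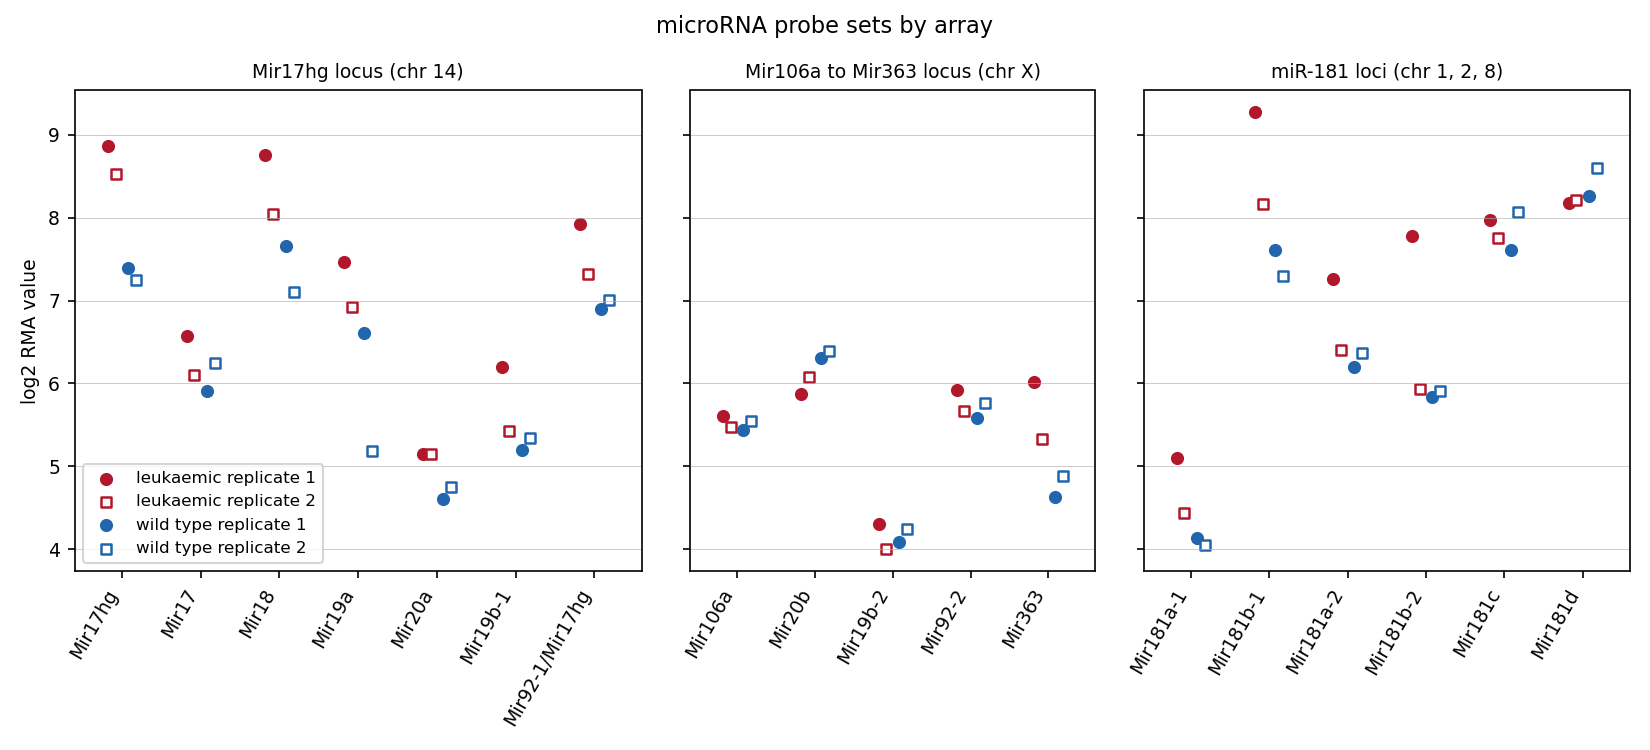
Log2 RMA value of each array (red leukaemic, blue wild type, filled replicate 1, open replicate 2) for the probe sets of the Mir17hg locus, of its relative on chromosome X and of the miR-181 loci. The leukaemic values of Mir17hg, 8.86 and 8.53, lie above both wild type values, and Mir181b-2 has its high value, 7.78, in leukaemic replicate 1 alone.

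The miR-181 loci on chromosomes 1 and 2 read higher in leukaemic spleen mainly through leukaemic replicate 1. Of the 4 probe sets Mir181b-1 alone lay above the olfactory receptor guide. Mir181b-1 on chromosome 1 read 9.27 and 8.16 in leukaemic spleens and 7.61 and 7.30 in wild type spleens, a difference of 1.26 (SE 0.35, limma adjusted p = 0.12). Its neighbour Mir181a-1 read 5.10 and 4.43 in leukaemic spleens, against 4.14 and 4.05 in wild type spleens (difference 0.67, SE 0.23). On chromosome 2, Mir181b-2 read 7.78 and 5.93 in leukaemic spleens and 5.83 and 5.91 in wild type spleens. Leukaemic replicate 2 of that probe set stood only just above the wild type arrays. Without leukaemic replicate 1 the difference of Mir181b-2 was 0.06 and that of Mir181b-1 0.70. Without leukaemic replicate 2 they were 1.91 and 1.81, against 0.98 and 1.26 with all arrays.

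Mir181a-2 followed the same order, with 7.26 and 6.41 in leukaemic spleens and 6.20 and 6.37 in wild type spleens. The differences of Mir181a-1 and Mir181a-2 were 0.33 and 0.12 without leukaemic replicate 1, and both had a limma adjusted p under 0.05 without leukaemic replicate 2 (0.97 for Mir181a-2). The 2 hairpins of chromosome 8 with the same seed did not: Mir181c read 7.98 and 7.76 in leukaemic spleens and 7.61 and 8.07 in wild type spleens, and Mir181d read 8.17 and 8.21 in leukaemic spleens and 8.26 and 8.60 in wild type spleens. Their differences were 0.03 and -0.24, with limma adjusted p-values of 0.97 and 0.51.

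Other microRNAs of the lymphoid lineage showed no difference that passed the test. Mir142, a haematopoietic microRNA, read 9.35 and 9.58 in leukaemic spleens and 9.47 and 9.45 in wild type spleens (difference 0.0021, SE 0.15). Mir150, which rises as lymphocytes mature, differed by -0.08 (SE 0.20) and Mir155, induced on B cell activation, by -0.06 (SE 0.24). Mir15a and Mir16-1, hairpins of the tumour-suppressive locus in Dleu2, differed by 0.12 and -0.14, and Mir34a, a p53 target, by 0.08. Among 14 B lineage probe sets 4 were higher on both leukaemic arrays, all of the miR-181 family, and 1 was lower, Mir181d. These make 28.6% and 7.14%, beside 23.2% and 25.5% of all probe sets.

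MicroRNAs of other cells gave no called difference. The erythroid hairpin Mir144 read 6.54 and 5.56 in leukaemic spleens and 6.54 and 6.97 in wild type spleens (difference -0.70, SE 0.32, limma adjusted p = 0.30). Without leukaemic replicate 2 its difference was -0.22, and without leukaemic replicate 1 it was -1.19. Mir451a beside it differed by -0.09. The 3 measured erythroid genes had list means of 11.64 and 11.66 in leukaemic spleens and 11.93 and 12.39 in wild type spleens. Mir146 and Mir146b, which restrain innate signalling, differed by 0.24 and -0.09, endothelial Mir126a by 0.16 and Mir31 by 0.24. All 6 of these hairpins lay below the olfactory receptor guide. None of the 408 probe sets carried the name Mir223, Mir21, Mir486 or Mir214.

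Hairpins known from the pancreas showed no excess in wild type replicate 2 like that of the exocrine genes. Of their 5 probe sets Mir375 alone lay above the olfactory receptor guide, so for the others an excess was not readily detectable. The highest array was wild type replicate 2 in 4 of the 5, beside 48.8% of microRNA probe sets. Mir375, of islets, read 7.58 and 7.45 in leukaemic spleens and 7.42 and 7.72 in wild type replicates 1 and 2. Mir216a, of acinar cells, read 6.24 and 5.92 in leukaemic spleens and 6.33 and 6.47 in wild type spleens. Mir216b, Mir217 and Mir148a lay between 3.63 and 5.43 on every array. The largest step between the wild type arrays among these 5 was 0.30, against list means of 6.87 and 11.89 for the exocrine genes.

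Probe sets named for let-7, miR-10, miR-99, miR-125 and miR-196, which act in progenitors and in several leukaemias, numbered 23. They include those of the host transcript Mir99ahg. Only 8 of them (34.8%) lay above the olfactory receptor guide. Of the 23, 3 were higher and 3 lower on both leukaemic arrays (13.0% each, beside 23.2% and 25.5% of all probe sets). The median difference of the 23 was -0.0054, with none beyond 0.5. Mir196a-1, from a Hox cluster, read 6.72 and 5.10 in leukaemic spleens and 5.35 and 5.65 in wild type spleens, so leukaemic replicate 1 alone was high. Without leukaemic replicate 2 its difference was 1.23, and without leukaemic replicate 1 it was -0.40, against 0.41 with all arrays. The transcript Mir100hg read 6.89 and 7.00 in leukaemic spleens and 7.57 on both wild type arrays, a difference of -0.62 (SE 0.14, limma adjusted p = 0.076). Inside it, Mir100, which is not among the 23, differed by -0.32 (SE 0.16), Mirlet7a-2 by -0.34 (SE 0.14) and Mir125b-1 by 0.05 (SE 0.14).

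The remaining microRNAs with the smallest p did not pass the adjusted threshold either. Mir680-1 read 7.97 and 8.06 in leukaemic spleens and 7.50 and 7.21 in wild type spleens (difference 0.66, SE 0.16, limma adjusted p = 0.087). Mir145a, a microRNA of smooth muscle, read 7.52 and 7.83 in leukaemic spleens and 8.47 and 8.20 in wild type spleens (difference -0.66, SE 0.17, adjusted p in limma 0.10). Mir340 read 4.87 and 5.22 in leukaemic spleens and 5.75 and 5.67 in wild type spleens (difference -0.66, SE 0.17), and its host Rnf130, a RING finger protein gene, differed by -0.77. A probe set shared by Mir692-3, Mir692-2 and Ftl1, the ferritin light chain gene, read 11.82 and 11.81 in leukaemic spleens and 12.38 and 12.24 in wild type spleens. Its 2 companions with the same symbols were also lower on both leukaemic arrays, with differences of -0.24 and -0.44.

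Individual snoRNAs differed in both directions and none passed the test. Snora75, an H/ACA snoRNA in an intron of the nucleolin gene Ncl, read 9.25 and 9.27 in leukaemic spleens and 8.62 and 8.65 in wild type spleens. That difference of 0.62 (SE 0.13, limma adjusted p = 0.073) was the H/ACA one of smallest p. Snora2b read 7.55 and 7.60 in leukaemic spleens and 7.10 and 6.81 in wild type spleens (difference 0.62, SE 0.16, limma adjusted p = 0.096). Both probe sets of Snora21 were higher on both leukaemic arrays, by 0.38 and 0.45. A probe set for Snora19 and 2 microRNA hairpins differed by 0.62, with the low value, 5.13, in wild type replicate 2, and by 0.21 without that array and 1.03 without wild type replicate 1.

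In the opposite direction Snora44 read 9.22 and 9.34 in leukaemic spleens and 9.92 and 9.76 in wild type spleens, a difference of -0.56 (SE 0.14, limma adjusted p = 0.099). One probe set of Snora3 read 10.38 and 11.29 in leukaemic spleens and 11.20 and 11.92 in wild type spleens, which overlap (difference -0.73, SE 0.35). Its difference ranged from -0.27 without leukaemic replicate 1 to -1.18 without leukaemic replicate 2. The other read 10.32 and 10.51 in leukaemic spleens and 10.79 and 10.66 in wild type spleens (difference -0.31, SE 0.15). Snora62, in the gene of ribosomal protein Rpsa, differed by -0.27.

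Among C/D snoRNAs, Snord16a, from an intron of the ribosomal protein gene Rpl4, read 10.47 and 10.78 in leukaemic spleens and 9.89 and 9.70 in wild type spleens. Its difference of 0.83 (SE 0.17) had a limma adjusted p of 0.066. Snord58b had the largest difference of all members, 1.46 (SE 0.37, limma adjusted p = 0.099), with 6.19 and 6.70 in leukaemic spleens and 5.56 and 4.42 in wild type spleens. It lay below the olfactory receptor guide, and without wild type replicate 2 the difference was 0.88. Its limma adjusted p was under 0.05 without either leukaemic array. Snord1c and Snord1b, which share a probe set, read 7.91 and 8.30 in leukaemic spleens and 7.73 and 6.83 in wild type spleens (difference 0.82, SE 0.30). Without wild type replicate 2, again the lowest array, the difference was 0.37, and without wild type replicate 1 it was 1.27. Snord53 differed by 0.32 (SE 0.14).

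Snord15b read 9.29 and 9.76 in leukaemic spleens and 10.23 and 10.25 in wild type spleens, a difference of -0.72 (SE 0.19, limma adjusted p = 0.10). Snord15a, from another intron of the same ribosomal protein gene Rps3, differed by -0.13. The imprinted Snord116 repeats, known for expression in brain and for the Prader-Willi region, had 7 probe sets with differences between -0.83 and 0.33. The one at -0.83 read 3.46 and 3.82 in leukaemic spleens and 4.49 and 4.45 in wild type spleens (SE 0.17, limma adjusted p = 0.066), near the floor of the array. Snord33 and Snord35b differed by -0.31 and -0.37. Snord118, which is required for processing of large-subunit ribosomal RNA, varied most within groups and was picked out after its values were seen: 8.72 and 10.25 in leukaemic spleens, 9.36 and 11.35 in wild type spleens. Its difference was -0.87 (SE 0.71, limma adjusted p = 0.6) with all arrays, and -1.63 without leukaemic replicate 2.

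Of the 3 scaRNAs, Scarna8 read 9.36 and 9.17 in leukaemic spleens and 8.38 and 8.59 in wild type spleens. Its difference was 0.78 (SE 0.15, limma adjusted p = 0.065). Scarna17 read 11.44 and 11.43 in leukaemic spleens and 11.71 and 11.61 in wild type spleens (difference -0.23, SE 0.14). Scarna13 overlapped between groups (difference -0.11, SE 0.14). With a variance prior that allows a trend and outliers, Scarna8 and Snord16a were called higher and the Snord116 probe set lower, with limma adjusted p-values of 0.039, 0.032 and 0.019.

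**Figure D3:**
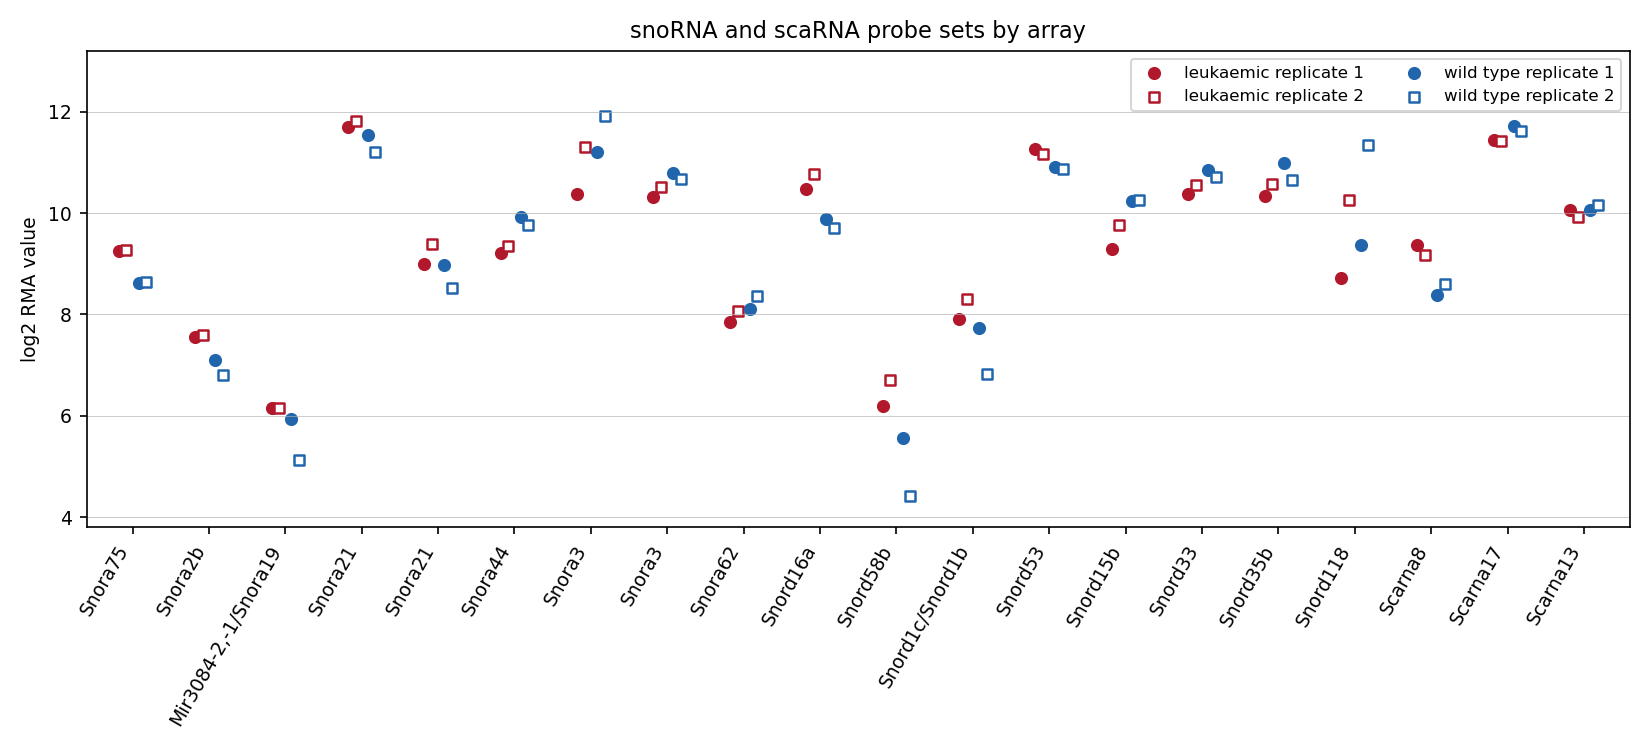
Log2 RMA value of each array (red leukaemic, blue wild type, filled replicate 1, open replicate 2) for snoRNA and scaRNA probe sets named in the text. Snora75 and Scarna8 are separated between groups, with leukaemic values of 9.25 and 9.27 for Snora75 against 8.62 and 8.65, while Snord118 ranges from 8.72 to 11.35.

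Where a small RNA lies inside a larger gene with a probe set of its own, both were set side by side. For 37 pairs of a snoRNA or scaRNA and its host (30 hosts), 29 differences had the same sign in both, with a Pearson r of 0.53 and a Spearman rho of 0.62 across pairs. For 141 microRNA pairs (102 hosts) 94 had the same sign, with r of 0.39 and rho of 0.40. Pairs share arrays, and several share a host. For the snoRNAs and scaRNAs and part of the microRNA pairs, strands were not given, so some paired genes may lie on the opposite strand. Some small RNA probe sets also carry the symbol of the host, such as that of Snord14a and Rps13, and these pairs were kept. A probe set of a small RNA may also detect the unspliced host transcript, so these are descriptions.

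Scarna8 and its host went together. Haus6, which encodes a subunit of the spindle-binding augmin complex, rose in leukaemic spleens to 9.67 on both arrays, against 8.92 and 8.67 in wild type spleens. The difference of 0.87 (SE 0.15) had a limma adjusted p of 0.049, and the call was lost whichever 1 of the 4 arrays was left out (adjusted p between 0.099 and 0.18). Ncl, host of Snora75, read 12.07 and 11.97 in leukaemic spleens and 11.38 and 11.25 in wild type spleens (difference 0.71, SE 0.14, limma adjusted p = 0.065). A second snoRNA of Ncl, Snord82, differed by 0.02. Likewise Snhg16, the non-coding host of Snord1c, differed by 0.64 and Wdr43, a ribosome assembly factor that hosts Snord53, by 0.58.

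Several snoRNAs and their hosts parted. The ribosomal protein gene Rpl4 differed by 0.11 where its Snord16a differed by 0.83. Rps3 differed by -0.03 where Snord15b differed by -0.72, and Rpl27a by -0.04 where the Snora3 sets differed by -0.73 and -0.31. Nop56, a core protein of C/D particles, differed by 0.54 while Snord57 in its intron differed by -0.06. These differences between a host and its snoRNA were not tested, and whether each host probe set lies at the host locus was not checked.

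By annotated interval, 6 microRNA probe sets were paired with a host that rose in leukaemic spleen, and 4 of these 6 overlapped between groups. Of the Mir17hg locus only Mir92-1 is among them, since the other 5 hairpins begin ahead of the Mir17hg interval in the RefSeq table used, and 4 of those 5 were higher on both leukaemic arrays, as given above. The exceptions among the 6 were Mir92-1 and Mir301b. Pde2a, a cyclic nucleotide phosphodiesterase gene, read 11.96 and 12.03 in leukaemic spleens and 10.50 and 10.51 in wild type spleens (difference 1.49, SE 0.13, limma adjusted p = 0.0098). Mir139 inside it read 9.02 and 8.97 in leukaemic spleens and 8.97 and 9.19 in wild type spleens. Arpp21, the gene of an RNA-binding phosphoprotein, differed by 2.49 (SE 0.38, limma adjusted p = 0.042) and Mir128-2 by 0.01. The transcript 2610318N02Rik differed by 2.03 (SE 0.35, limma adjusted p = 0.049), its Mir130b by 0.11 and its Mir301b by 0.21. Fgf13, an intracellular fibroblast growth factor homologue, differed by 1.61 (SE 0.18, limma adjusted p = 0.019) and Mir504 by 0.33.

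The other called host was Mir17hg, already described with Mir92-1. All 5 host calls were lost without wild type replicate 1 and without wild type replicate 2, where limma adjusted p-values lay between 0.088 and 0.25. Arpp21, Pde2a, Fgf13 and 2610318N02Rik were picked out because they were called.

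**Figure D4:**
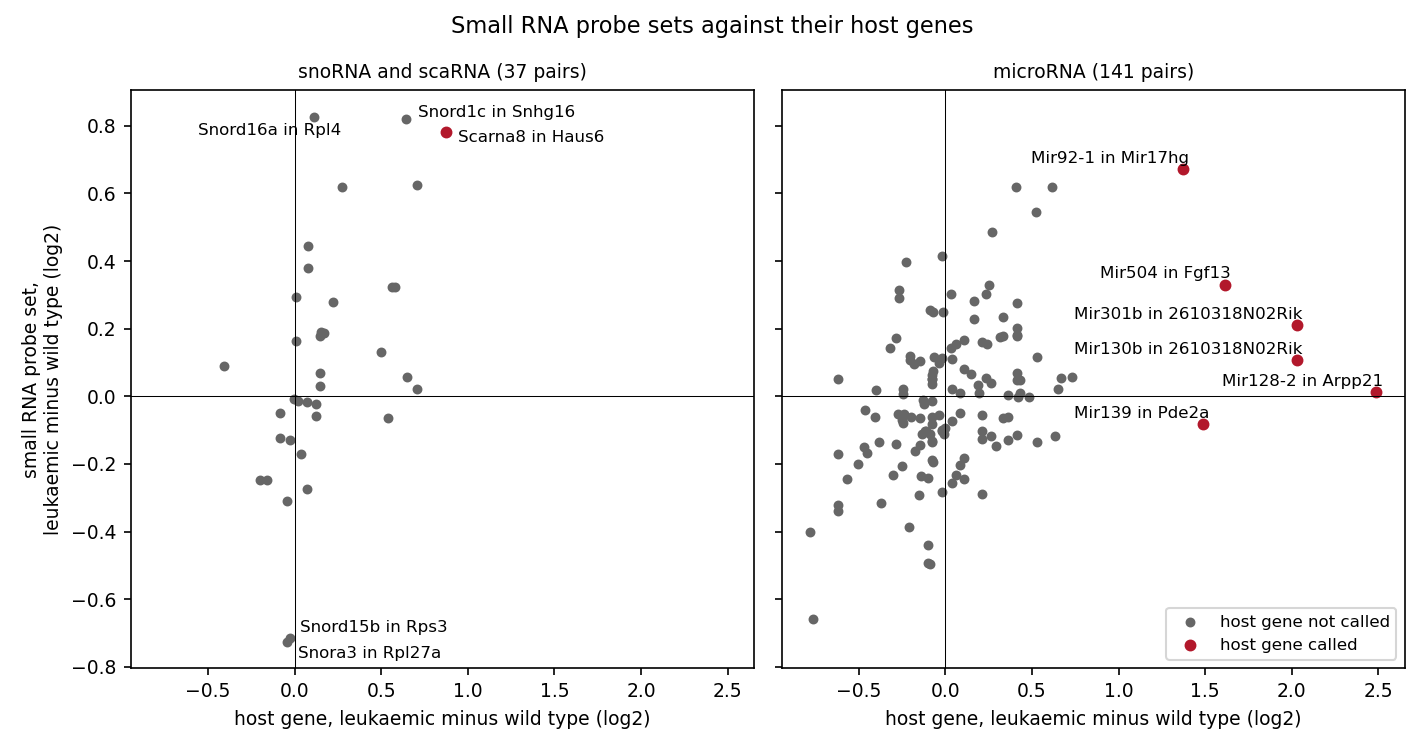
Difference (leukaemic minus wild type, log2) of each small RNA probe set on the vertical axis against that of its host gene on the horizontal axis, for 37 snoRNA and scaRNA pairs and 141 microRNA pairs. Red points are pairs whose host was called, and Arpp21 at 2.49 and Pde2a at 1.49 lie beside hairpin differences of 0.01 and -0.08.

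Genes known to carry snoRNAs in their introns were also taken as a list, of which 32 of 54 were measured. None was called at a limma adjusted p of 0.05, 8 of the 32 were higher at an unadjusted limma p under 0.05 and 0 lower, beside 9.94% and 9.84% of all probe sets. Both leukaemic arrays were higher in 17 (53.1%) and lower in 2 (6.25%), beside 23.2% and 25.5% of all probe sets. Among the 9025 probe sets in the middle level range of the snoRNAs and scaRNAs the shares were 35.6% and 27.2%. The listed genes were bright, with a median level of 11.70. Their median difference was 0.11, beside -0.028 over all probe sets. The lowest of the 4 arrays was wild type replicate 2 in 24 of the 32 (75%), beside 24.9% of all probe sets. The 2 of smallest p were Nop58, a core protein of C/D particles (difference 0.94, SE 0.17, adjusted p in limma 0.055), and Ncl. The listed ribosomal protein genes, from Rpl13 at -0.16 to Rps12 at 0.17, stood beside Rcc1 at 0.64, a nuclear transport regulator, and Dkc1 at 0.63, the pseudouridine synthase of H/ACA particles. That these were set side by side was decided after their values were seen.

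Proteins that form or assemble snoRNA particles read higher throughout. All 21 that were measured, of 22 listed, were higher on both leukaemic arrays, where 23.2% of all probe sets were. Among the 9025 probe sets in the middle level range of the snoRNAs and scaRNAs, 35.6% were. Their median difference was 0.50, from 0.17 for the chaperone component Pih1d1 to 0.94 for Nop58. The lowest of the 4 arrays was wild type replicate 2 in 19 of the 21 (90.5%), beside 24.9% of all probe sets. The part of that array in these differences was not tested beyond leaving it out. At an unadjusted limma p under 0.05 there were 15 higher and 0 lower, beside 9.94% and 9.84% of all probe sets, and 0 passed the adjusted threshold. Rpap3, a chaperone partner in particle assembly, read 8.72 and 8.57 in leukaemic spleens and 7.88 and 7.60 in wild type spleens (difference 0.91, SE 0.16, limma adjusted p = 0.052). The snoRNAs that these proteins bind had median differences of -0.0025 and -0.024, as given above.

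MicroRNA processing proteins showed no common direction. Of 23 measured, 7 (30.4%) were higher and 5 (21.7%) lower on both leukaemic arrays, near the 23.2% and 25.5% of all probe sets. The median difference was 0.013 and 0 were called, with 2 higher and 1 lower at an unadjusted limma p under 0.05, where 9.94% and 9.84% of all probe sets were. Dgcr8, the RNA-binding partner of Drosha, read 10.45 and 10.23 in leukaemic spleens and 9.63 and 9.77 in wild type spleens (difference 0.64, SE 0.15, limma adjusted p = 0.085). Ran, the GTPase that carries hairpins out of the nucleus with Xpo5, read 11.31 and 10.98 in leukaemic spleens and 10.65 and 10.33 in wild type spleens (difference 0.66, SE 0.18, limma adjusted p = 0.12). Drosha itself differed by 0.08 and Dicer1 by 0.32.

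**Figure D5:**
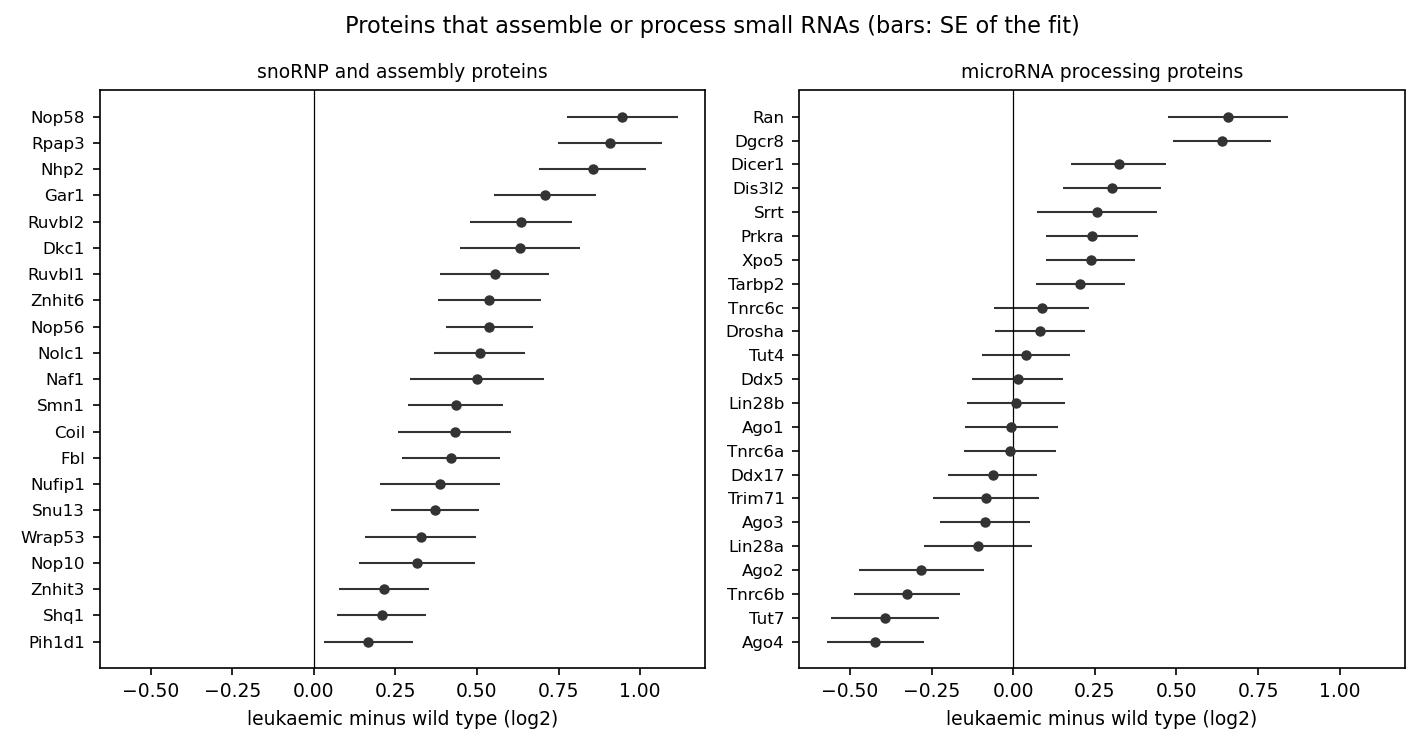
Difference (leukaemic minus wild type, log2, with the SE of the fit as a bar) of each measured gene of the 2 protein lists, 2 mice per group. All 21 snoRNA particle genes lie right of 0, from 0.17 to 0.94, and the 23 microRNA processing genes spread from -0.42 to 0.66.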

How the data were processed

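The values deposited by the authors are on a log2 scale, and RMA with R 2.15.0 and limma 3.12.1 is named in the submitters' processing notes, with no settings given in the sources used here. Per the labels' protocols, RNA came from a Qiagen RNeasy Microarray Tissue kit and was amplified with the Ambion WT Expression kit. How well that extraction and labelling retain RNA as short as a mature microRNA was not tested. Array medians were 7.96 in both leukaemic spleens, and 8.03 and 8.02 in wild type spleens. Precision is limited by the number of arrays.

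Symbols came from the platform annotation, which listed 21903 of 23309 probe sets, and host genes, chromosomes and hairpins from RefSeq tables of GRCm38.p6, in which all 408 members matched and 289 of 355 microRNA symbols had a hairpin sequence. A host is a gene whose interval holds the small RNA. It was read from the brightest probe set that carries its symbol alone, and whether that probe set lies at the host locus was not checked. The same strand was required where strands were given for both. They were not given for snoRNAs and scaRNAs, nor for part of the microRNA pairs, such as those with Rtl1 and Mib1. All probe sets entered limma 3.58.1 in R 4.3.3 (lmFit, eBayes, no covariate), with Benjamini-Hochberg adjustment over 23309 and calls at an adjusted p under 0.05. SE is that of the moderated fit. In 2 against 2 mice the smallest two-sided exact permutation p is 0.333. Summaries and figures used Python 3.11.15 with pandas 2.3.3, scipy 1.17.1 and matplotlib 3.10.9, and the fit was tested on simulated data.

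Members, gene lists and the naming rule were chosen with earlier results of these data known. The rule took called members, the 4 uncalled members of smallest p in each class and direction, fixed microRNA groups, the 2 genes of smallest p of a protein list without calls, and host genes of named members. Alternatives were median centring, quantile normalization, leaving out the dimmest 33.3% of probe sets, another variance prior, a minimum difference, 1 probe set per gene, a replicate block, each array left out and small-RNA symbols only.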

Additional observations from a re-analysis of the deposited data

How the results depend on the processing

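The count of small RNA probe sets called higher, 1 with all arrays, was 0 after quantile normalization and against a minimum difference of 0.5, 3 with a trended and robust variance prior and 0 to 11 with 1 array left out. The count called lower, 0 with all arrays, was 1 with the trended prior and 0 to 3 with 1 array left out. The 11 and 3 came without leukaemic replicate 2, and over all probe sets leaving out wild type replicate 2 left 0 calls and leaving out wild type replicate 1 left 9 higher and 30 lower. Calls among snoRNA host genes, 0 in the main setting, numbered 1 after median centring, 4 with the trended prior, 1 with 1 probe set per gene and 0 to 2 with 1 array left out. Calls among snoRNA particle proteins, also 0, numbered 2, 5, 3 and 0 to 2 in the same settings. The replicate numbers did not pair the mice (r = -0.08 between the deviations of same-numbered arrays), and a fit with the replicate number as a block called 8 members higher and 4 lower, 3 host genes, 4 particle proteins and 1 microRNA processing protein. Over all probe sets 64.7% of 391 calls were higher, against 75.8% after median centring (332 higher, 106 lower), 85.2% after quantile normalization (75 higher, 13 lower), 90.9% with the minimum difference (50 higher, 5 lower), 48.6% with the block (780 higher, 825 lower) and 42.8% without leukaemic replicate 2 (472 higher, 631 lower). The trended prior gave 546 higher and 434 lower calls. Class medians moved by less than the replicate spread in every setting run and lay between -0.18 and 0.13. Of 1249 alternative values for 119 named differences, 0 turned a called direction, while 47 uncalled differences of at most 0.53 in size changed sign in at least 1 setting. A fit of 1 array against 2 assumes that the lone array varies like the others. Without either leukaemic array, the fit also gave every probe set the same variance. Calls in those fits therefore followed the size of the difference alone, also where the wild type arrays lay far apart.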
